A study of Homo sapiens with 16 samples.

Results

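The respiratory chain and ATP synthase of human mitochondria were followed through the stepwise selection of a gemcitabine-resistant bladder cancer line. Members were taken by symbol from the 39007 rows of the expression table: names that begin with NDUFA, NDUFB, NDUFC, NDUFS, NDUFV, UQCR or ATP5, SDHA to SDHD, COX4 to COX8, and the MT-ND, MT-CO, MT-CYB and MT-ATP genes. Of 195 rows with such a name, 83 pseudogene rows and 8 NDUFAF rows, which encode assembly factors, were left out, and 104 members remained. Of these, 13 are encoded by mitochondrial DNA and 91 by the nucleus, and 97 are subunit rows. The other 7 are antisense transcripts (NDUFA6-AS1, NDUFB2-AS1, NDUFV2-AS1), a read-through transcript (ATP5J2-PTCD1), a pseudogene (ATP5J2LP), and ATP5S and ATP5SL, which carry the prefix only. The table uses older ATP synthase symbols, so the current symbol is given where such a gene is first described.

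RNA was sequenced from T24 cells, an established human bladder cancer line, and from GRC1, which was derived from T24 by repeated exposure to 1.5 µM gemcitabine for 72 h. The 16 libraries fall into 4 groups of 4. P0 is the parental phase before any drug, and P3, P7 and P15 are the early, intermediate and late phase, numbered by the rounds of exposure that the cells had survived. GRC1 is a single selected line and all phases were grown in the same medium with serum, so P3, P7 and P15 stand for one lineage; the sample titles carry the tag NT, which no source used here spells out, and whether drug was present at harvest is not stated otherwise. The labels do not state that the 4 libraries of a phase came from separate cultures. The p-values therefore measure the spread between these libraries, which may be technical. The titles also carry S numbers that repeat between phases, and no source used here says what they stand for. The phases were reached one after another, so rounds of exposure cannot be told apart from time in culture.

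The inner mitochondrial membrane carries 4 respiratory complexes and the ATP synthase, often called complex V. Complex I takes electrons from NADH and complex II from succinate, ubiquinone carries them to complex III, cytochrome c carries them to complex IV, and complex IV hands them to oxygen. The proton gradient built on the way drives ATP synthase, whose membrane ring of c subunits turns against the catalytic F1 head. The mitochondrial genome encodes core membrane subunits of complexes I, III, IV and V, transcribed as long precursors that are cut into single mRNAs, while every subunit of complex II and all other subunits come from nuclear genes and are imported.

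Values are CPM, the counts of a gene scaled to a common library total, which the authors deposited as log2(CPM + 1). Fold changes are differences on that log2 scale. A gene was called when its adjusted p in limma, fitted over all 16 libraries with Benjamini-Hochberg adjustment, was below 0.05. Genes whose mean exceeded 1 CPM were tested, 13249 in all. Of the 104 members, 92 entered the test: all 13 mitochondrial ones and 79 nuclear ones, 76 of them subunits. The 12 left out were low: COX4I2, COX6B2, COX7A1, COX7B2, COX8C, NDUFA4L2, ATP5L2, NDUFA7, NDUFB2-AS1, NDUFV2-AS1, ATP5J2LP and ATP5J2-PTCD1.

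Library totals, read from the steps between the smallest nonzero values, lay between 33.8 and 49.98 M counts. Of 14 epithelial and urothelial markers 6 had a mean above 1 CPM, while CDH1 stayed below 0.1 CPM and the uroplakins reached at most 2.34 CPM. The summed list fell from 2116 to 2192 CPM in P0 to 677 to 755 CPM in P15, where KRT19 averaged 0.012 CPM after 85.1 in P0 and KRT8 70.3 after 593, and KRT18 633 after 471. Of the markers of other cell types, CD14 was the 1 of 5 for leukocytes above a mean of 1 CPM (6.81 CPM in P0 and 0.058 in P15). CDH5 was the 1 of 3 for endothelium (5.69 and 0.13). COL1A1 and PDGFRB were the 2 of 5 for fibroblasts (COL1A1 5.01 and 23.97, PDGFRB 2.768 and 2.375). PTPRC, which defines leukocytes, reached at most 0.057 CPM. What part these shifts have in the results for the members was not tested. One library stood apart for the members. In P0 replicate 2 all 13 mitochondrial members exceeded the other 3 P0 libraries, by 0.643 to 0.977 on the log2 scale over their mean, and 57 of 79 nuclear members (72.2%) were also highest there, against 30.7% of all genes. The main results of the mitochondrial members and the total counts of nuclear members that rest on P0 are therefore given with and without it. Counts by complex, by promoter core and by phase of the highest or lowest mean use all 16 libraries unless stated otherwise. Shares of all genes called come from the fit of all 16 libraries throughout. The calls against P0 that are named for single nuclear members were kept without P0 replicate 2.

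Members encoded by the mitochondrial and by the nuclear genome followed different courses. Mitochondrially encoded mRNA made up 1.09 ± 0.356% of the counts in P0 (mean ± SD, n = 4 libraries in each phase), 1.29 ± 0.0926% in P3, 1.54 ± 0.121% in P7, then 0.918 ± 0.0524% in P15. The P0 libraries 1 to 4 held 0.924, 1.62, 0.831 and 1.00%, and without replicate 2 their mean was 0.920 ± 0.0869% (n = 3). The P3 libraries held 1.20 to 1.39%, the P7 libraries 1.41 to 1.66% and the P15 libraries 0.849 to 0.973%. P3, P7 and P15 did not overlap one another, and P15 overlapped P0.

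Nuclear-encoded subunits moved otherwise: their summed share was 0.838 ± 0.0265% in P0, 0.755 ± 0.00684% in P3, 0.808 ± 0.0116% in P7, then 0.944 ± 0.0171% in P15. Every P15 library (0.922 to 0.963%) lay above every library of the earlier phases, and every P3 library (0.749 to 0.761%) lay below all others. Mitochondrial mRNA counts were 1.72 to 2.05 times those of the nuclear subunits in P7 and 0.894 to 1.03 times in P15. These sums are dominated by the most abundant members, and in bulk RNA a share of a library cannot separate less of one RNA from more of the others. The plot of summed shares shows both courses and the library that stands apart.

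**Figure D1:**
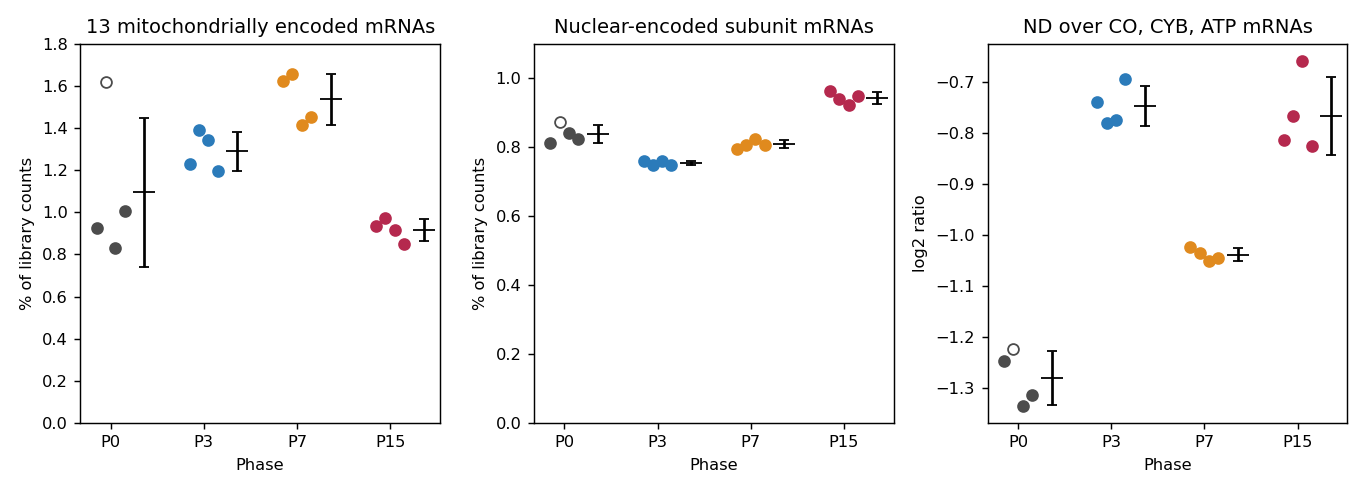
Summed share of the 13 mitochondrially encoded mRNAs (left) and of the nuclear-encoded subunit mRNAs (middle), in percent of library counts, and log2 ratio of the 7 ND mRNAs to the 6 other mitochondrial mRNAs (right), against phase. Points are single libraries, the open circle is P0 replicate 2, and bars give mean ± SD over 4 libraries; the mitochondrial share peaks in P7 at 1.54% and is 0.918% in P15, where the nuclear share is highest at 0.944%.

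The 7 MT-ND genes encode membrane subunits of complex I; MT-CYB encodes cytochrome b of complex III, MT-CO1 to MT-CO3 the catalytic core of complex IV, and MT-ATP6 and MT-ATP8 membrane subunits of ATP synthase. Between P0 and P3 all 7 MT-ND mRNAs rose and none of the other 6 passed the test, where 31.4% of all tested genes were called higher and 37.3% lower. MT-ND1 was counted at 264, 525, 239.5 and 299 CPM in P0 replicates 1 to 4 and at 497, 587, 571 and 500.5 CPM in P3. Apart from P0 replicate 2, each P0 library lay below each P3 library, and the log2 fold change was 0.77 (SE 0.142, adjusted p = 4.76e-05 in limma). The other ND mRNAs rose by 0.29 (MT-ND3) to 0.72 (MT-ND6), while the CO, CYB and ATP mRNAs had fold changes of −0.13 to 0.20.

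Of the 7, 4 rose by at least 1.5-fold, where 5.94% of all genes did. Without P0 replicate 2 the call extended to 12 of the 13, all but MT-CO3, and every ND mRNA still had a larger fold change (0.46 or more) than every other (0.40 or less). MT-ND1 then differed by 1.01 (SE 0.072), MT-ND6 by 0.92 and MT-ND4 by 0.89, against 0.40 for MT-CO1, 0.32 for MT-CYB and 0.04 for MT-CO3 (adjusted p = 0.53 for the last, in limma). The ratio of summed ND mRNA to the other mitochondrial mRNA, chosen after the values were seen and given with no test, does not depend on the library that stands apart. It was −1.34 to −1.22 on the log2 scale in P0, where replicate 2 had −1.22, and −0.78 to −0.69 in P3. In P7 it was −1.05 to −1.02 and in P15 −0.83 to −0.66, so that P3 and P15 overlapped each other and neither overlapped P0 or P7.

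From P3 to P7, 4 of the 6 CO, CYB and ATP mRNAs and 1 of 7 ND mRNAs rose and none fell, where 30.3% of all genes were called higher and 28.0% lower. Without P0 replicate 2, which enters through the shared estimate of the spread, 5 of the 6 and 3 of the 7 rose. MT-CO3 went from 1104, 1234, 1225 and 1030.0 CPM in P3 to 1697, 1709, 1573 and 1551 CPM in P7, with no overlap and a log2 fold change of 0.51 (SE 0.10, adjusted p = 0.00013 in limma). MT-CYB rose by 0.49, MT-ATP6 by 0.40, MT-ND1 by 0.38 and MT-CO1 by 0.30. MT-ND4, MT-ND5 and MT-ND6 had fold changes between −0.08 and 0.01 and did not pass. Against P0, 12 of the 13 were higher in P7, where 27.9% of all genes were, with MT-ATP8 as the exception, and all 13 were without P0 replicate 2.

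From P7 to P15 all 13 fell, 9 of them by at least 1.5-fold, where 40.1% of all genes were called lower and 22.0% were lower by at least 1.5-fold. MT-CYB showed the largest fall: 948, 961, 808 and 831 CPM in P7 became 387, 376, 376 and 346 CPM in P15, a log2 fold change of −1.25 (SE 0.13, adjusted p = 2.3e-09 in limma). MT-CO1, the most abundant member, had 4870.0, 5184, 4181 and 4359 CPM in P7 and 2797, 2997, 2609 and 2591 CPM in P15 (log2 fold change −0.76, SE 0.12). The 6 CO, CYB and ATP mRNAs fell by 0.76 to 1.25 and no library of theirs in P15 reached one in P7. The falls of MT-ND5 (−0.28), MT-ND6 (−0.30), MT-ND3 (−0.34) and MT-ND2 (−0.42) were the smallest.

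Against P0, late phase P15 was therefore split by type of gene: MT-ND5 and MT-ND6 were higher and MT-CO2, MT-CO3, MT-ATP6, MT-ATP8 and MT-CYB were lower, where 45.3% of all genes were called higher and 40.9% lower. MT-ATP8 was the furthest down at −0.79 (SE 0.12, and −0.59 without P0 replicate 2). MT-ND6 was the furthest up at 0.38 (SE 0.12, and 0.58 without that library). Without P0 replicate 2, MT-ND1, MT-ND2, MT-ND3 and MT-ND4 joined the higher ones and the same 5 were lower. MT-ATP8 shares 22.2% of its exon bases with MT-ATP6. MT-ND6 lies on the opposite strand to the other 12 and no strand setting is given, so its reads cannot be told from those of an antisense RNA there.

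**Figure D2:**
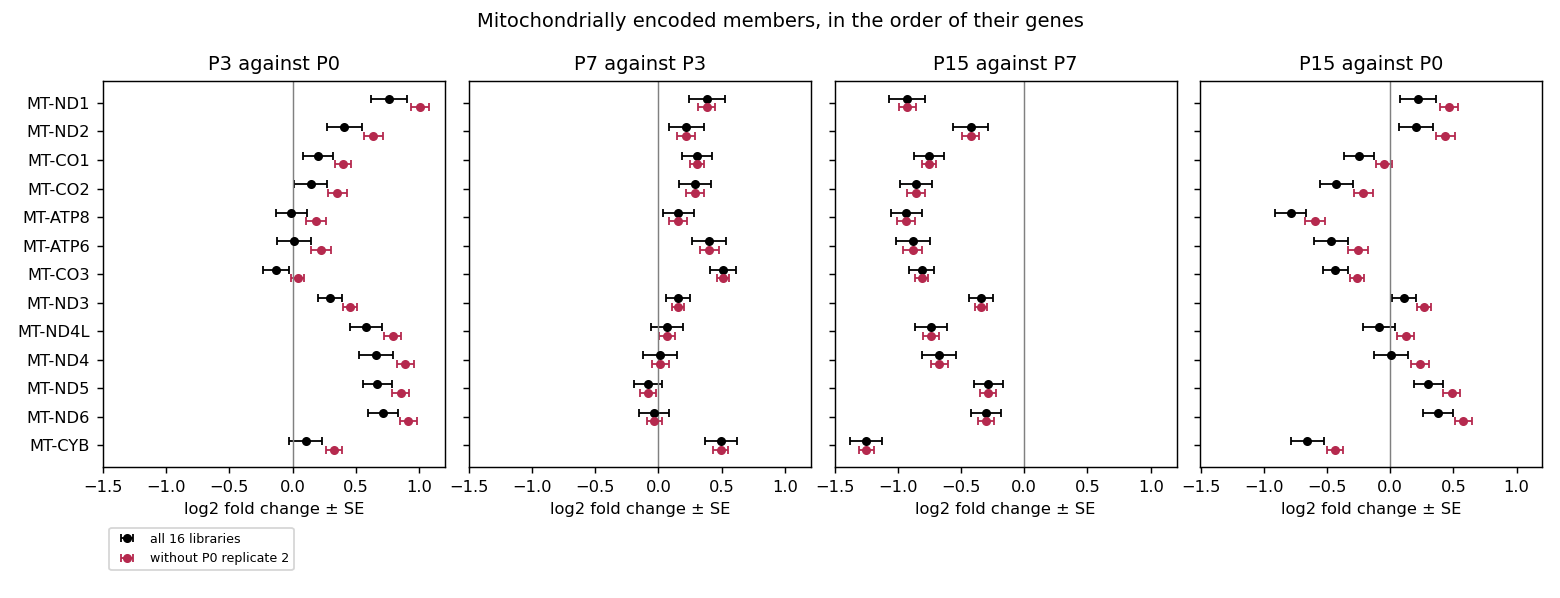
Log2 fold change ± SE in limma of each mitochondrially encoded member in 4 comparisons of phases, genes in their order on the mitochondrial genome, with all 16 libraries (black) and without P0 replicate 2 (red). At P3 against P0 the ND genes lie furthest to the right in both fits, and at P15 against P7 all 13 lie left of 0, from −0.28 for MT-ND5 to −1.25 for MT-CYB.

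Mitochondrial rRNA, which is no member, did not fall with the mRNAs in P15. Summed counts of MT-RNR1 and MT-RNR2 were 0.107 to 0.183% of a library in P0, 0.167 to 0.195% in P3, 0.216 to 0.256% in P7, then 0.249 to 0.342% in P15. Reverse transcription used poly(dT) primers according to the labels, so each of these values depends on the priming of that RNA as well as on its amount.

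Among nuclear members the main change from P0 to P3 was a broad, shallow decline. Of 79 nuclear members, 43 fell (54.4%) and 4 rose (5.06%), where 37.3% of all genes fell and 31.4% rose, with a median log2 fold change of −0.12 against −0.025 over all genes. Complex III led with 6 of the 9 rows taken by name lower and none higher. Complex V had 9 of 15 lower, complex I 21 of 36, complex II 2 of 4 and complex IV 4 of 12. The size was small: 1 of the 43 fell by at least 1.5-fold, where 8.14% of all genes did. Without P0 replicate 2, 37 of the 79 were lower (46.8%) and 6 higher (7.59%), and the median was −0.09. Complex I then had 17 of 36 lower and complex V 7 of 15.

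The one larger fall was ATP5D (now ATP5F1D), the delta subunit of the F1 stalk, with 70.0, 78.3, 76.7 and 77.8 CPM in P0 and 47.2, 47.8, 43.3 and 43.9 CPM in P3. Its log2 fold change was −0.72 (SE 0.063, adjusted p = 4.2e-10 in limma) and the libraries did not overlap. NDUFB6, an accessory subunit of complex I, fell by 0.48, ATP5A1 (ATP5F1A), the alpha subunit of F1, by 0.47, and SDHC, a membrane anchor of complex II, by 0.38. The 4 that rose were NDUFV2 (0.36), SDHB (0.18), NDUFB3 (0.12) and ATP5L (ATP5MG, 0.11), none of them by 1.5-fold.

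From P3 to P7 the balance turned. Of the 79, 32 rose (40.5%) and 10 fell (12.7%), where 30.3% of all genes rose and 28.0% fell, with a median of 0.08 against 0.0075 over all genes, and no member reached 1.5-fold, where 4.34% of all genes rose and 2.78% fell by that much. COX7C, a small subunit of complex IV, rose most, from 203, 180.0, 197 and 198.5 CPM in P3 to 260.4, 275, 270 and 268 CPM in P7 (log2 fold change 0.46, SE 0.041, adjusted p = 1.1e-09 in limma). ATP5A1 and NDUFB6, which had fallen at P3, rose by 0.29 and 0.28, UQCRC1, a matrix-facing core protein of complex III, by 0.26, and ATP5O (ATP5PO), which joins the F1 head to the stator, by 0.26. ATP5D, which had fallen by 0.72 at P3, had a fold change of 0.02 and did not pass. The falls were small: ATP5SL (now DMAC2, an assembly protein) by 0.24, ATP5G1 by 0.23, SDHB by 0.16, NDUFS3 by 0.13 and COX5A by 0.12.

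The largest changes came between P7 and P15, and they went both ways within each complex. Of 79 nuclear members 42 rose (53.2%) and 22 fell (27.8%), where 46.3% of all genes rose and 40.1% fell. By at least 1.5-fold, 17 rose and 8 fell, where 25.6% and 22.0% of all genes did. The median was 0.11 against 0.055 over all genes. Counted against P0, 37 were higher (46.8%) and 25 lower (31.6%) at P15, where 45.3% and 40.9% of all genes were, so that the higher share lay near that of all genes. By at least 1.5-fold 12 were higher and 8 lower, where 23.4% and 21.4% of all genes were. Without P0 replicate 2 the counts were 40 higher and 21 lower.

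**Figure D3:**
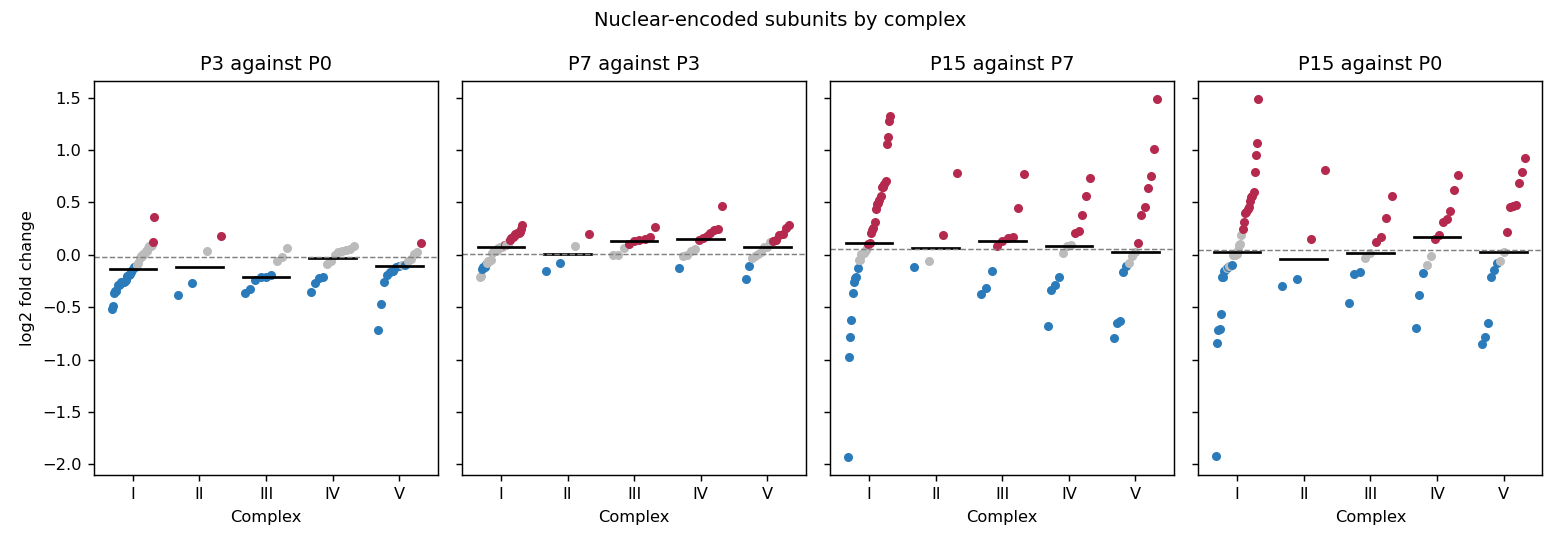
Log2 fold change of each of the 76 tested nuclear-encoded subunits, sorted within its complex, in 4 comparisons of phases. Red and blue points passed the test as higher and lower, grey points did not, black lines are medians of a complex and the dashed line is the median of all 13249 genes; the 2 comparisons of P15 spread from −1.93 to 1.49, the earlier ones from −0.72 to 0.46.

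Complex I, the entry point for electrons from NADH, changed in both directions. Of the 7 nuclear core subunits tested, 4 rose from P7 (57.1%) and none fell, with a median of 0.53. The 29 accessory subunits had 15 higher (51.7%), 9 lower and a median of 0.10. Over all genes 46.3% rose and 40.1% fell, so that both shares of rises lay near it. Against P0, 4 core subunits were higher and 2 lower (4 and 1 without P0 replicate 2), where 45.3% and 40.9% of all genes were. The 4 that rose from P7 include NDUFV2 and NDUFS7, whose exon overlap is given below.

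NDUFA1, an accessory subunit that sits in the membrane arm, fell. It had 151, 167, 162 and 154 CPM in P0, 168, 176, 179 and 176 CPM in P7 and 92.7, 87.7, 90.1 and 82.9 CPM in P15, a log2 fold change from P7 of −0.98 (SE 0.037, adjusted p = 6.1e-18 in limma). NDUFB3 fell by 0.78 and NDUFA2 by 0.62 from P7, both accessory subunits. NDUFC2, another, had the largest fall, from 17.4, 20.1, 18.3 and 18.7 CPM in P7 to 4.24, 4.54, 3.35 and 4.58 CPM in P15 (log2 fold change −1.93, SE 0.075).

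Several of these genes share exon bases with a neighbour, and the sources do not state how a read that fits 2 genes was counted. NDUFC2 shares 22.3% of its exon bases with other genes, the read-through gene NDUFC2-KCTD14 among them. NDUFV2, which rose by 1.33 from P7 and by 1.48 from P0, is overlapped over 90.0% of its exon bases. It was counted at 0.3195 to 3.79 CPM over the 16 libraries. NDUFS7 (1.06 from P7) is overlapped over 51.3% and NDUFA3 (1.12 from P7) over 15.9%. The fold changes of these genes are those of the reads assigned to them and are uncertain as levels. NDUFA1, NDUFB3 and SDHB have no such overlap. Over the 24 nuclear members with neither overlap nor a pseudogene row, 11 were higher and 7 lower from P7. Of all genes 46.3% were higher and 40.1% lower.

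Complex II, which also works in the citric acid cycle, has 4 subunits, and at P15 against P0 they were called in both directions. SDHB, the iron-sulfur subunit, had 142, 140.0, 144 and 140.0 CPM in P0, 158, 159, 164 and 161 CPM in P3, 141, 146, 149 and 139 CPM in P7 and 262, 246, 231 and 255 CPM in P15. P15 lay clear of all other phases, with a log2 fold change from P0 of 0.81 (SE 0.035, adjusted p = 1.0e-16 in limma). SDHA, the flavoprotein, rose by 0.15 from P0, although 69.4% of its exon bases are shared. The membrane anchors SDHC and SDHD were lower than in P0 by 0.23 and 0.29 at P15 (0.20 and 0.25 without P0 replicate 2). SDHC had 97.4, 109.7, 98.7 and 98.0 CPM in P0, 80.6, 75.1, 75.6 and 77.8 CPM in P3, 85.8, 93.4, 92.1 and 84.6 CPM in P7 and 91.4, 84.0, 84.6 and 82.3 CPM in P15. Both anchors were already down in P3, by 0.38 and 0.26. At P15 against P3, SDHC was called higher, with a fold change of 0.14, and SDHD had −0.03 and did not pass.

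The c ring of ATP synthase is built from one protein that 3 nuclear genes encode, since their products differ only in the leader peptide that is removed after import. ATP5G1 (ATP5MC1) had 97.4, 102, 99.4 and 96.0 CPM in P0, 101, 96.7, 98.7 and 101 CPM in P3, 80.6, 85.8, 85.8 and 85.2 CPM in P7 and 58.3, 55.1, 54.0 and 49.9 CPM in P15. It fell in both later steps, by 0.23 (SE 0.040) and 0.63 (SE 0.040), and was 0.85 below P0 at P15 (adjusted p = 5.6e-16 in limma). ATP5G2 (ATP5MC2) had 131.5, 148, 133 and 137 CPM in P0, 123, 129, 123 and 118 CPM in P3, 131, 121, 132 and 133 CPM in P7 and 264, 271.5, 250 and 262 CPM in P15. It stayed within 118 to 148 CPM until P7 and stood 0.93 above P0 at P15 (SE 0.040, adjusted p = 1.2e-16 in limma).

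ATP5G3 (ATP5MC3) rose by 0.22 from P0 to P15, from 194 to 214 CPM to 231 to 248 CPM. The 3 genes together summed to 439 ± 17.7 CPM in P0, 413 ± 4.42 in P3, 433 ± 7.70 in P7, then 553 ± 14.2 in P15, so that the sum was higher in P15 while ATP5G1 was lower. Per kilobase of transcript, ATP5G1 made up 41.3 ± 0.939% of the pair ATP5G1 and ATP5G2 in P0, 44.2 ± 1.37% in P3, 39.0 ± 1.42% in P7, then 16.9 ± 0.932% in P15. The table also holds 5 pseudogene rows with the ATP5G1 name and 3 with the ATP5G2 name, and how reads that fit a gene and its copies were divided is not given.

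**Figure D4:**
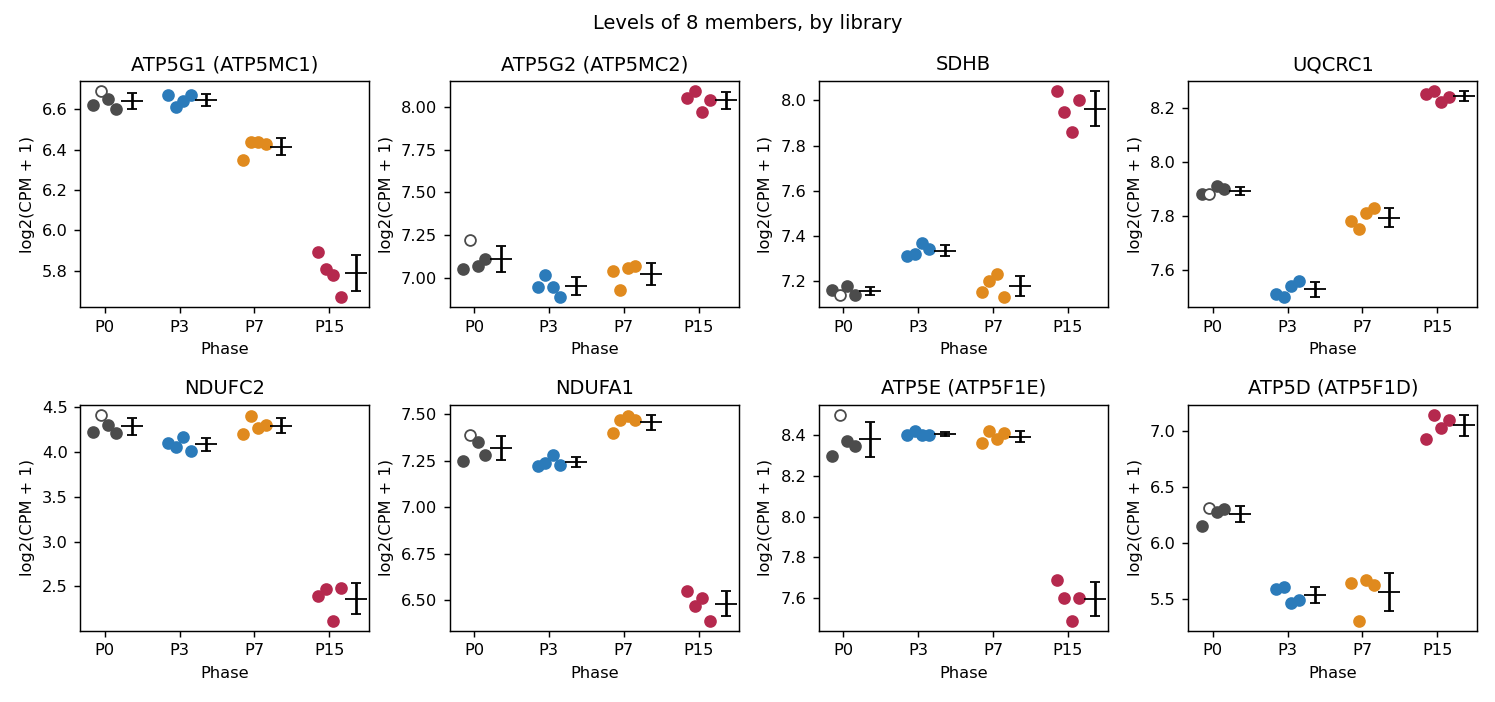
Levels of 8 nuclear members as log2(CPM + 1), 1 point per library, with mean ± SD over 4 libraries to the right of each group and P0 replicate 2 as an open circle; axes do not start at 0. ATP5G2, SDHB, UQCRC1 and ATP5D are highest in P15, ATP5G1, NDUFC2, NDUFA1 and ATP5E are lowest there, and P15 does not overlap another phase in any of the 8.

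In the F1 head, ATP5D rose from 48.9, 38.7, 49.9 and 48.5 CPM in P7 to 121, 140.0, 130 and 136 CPM in P15, the largest rise of a nuclear member (log2 fold change 1.49, SE 0.063, adjusted p = 6.3e-17 in limma). ATP5A1 and ATP5B (ATP5F1B), the alpha and beta subunits that form the catalytic sites, rose by 0.64 and 0.75, and ATP5C1 (ATP5F1C), the gamma shaft, had −0.01 and did not pass; ATP5B and ATP5C1 were added after their values were seen, to complete the F1 head. ATP5E (ATP5F1E), the smallest subunit of the stalk, fell from 328, 341.5, 332 and 339 CPM to 205.5, 193, 179 and 193 CPM (log2 fold change −0.80, SE 0.039), with 32.7% of its exon bases shared with TUBB1. ATP5L, a membrane subunit, fell by 0.65.

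In complex III all 9 nuclear rows taken by name passed at P15 against P7, 6 higher and 3 lower. The rows include UQCRHL, named for its likeness to UQCRH, which was among the lower ones. They leave out CYC1, cytochrome c1, which the name rule does not take. Most genes passed in that comparison, 46.3% of all genes as higher and 40.1% as lower. The fold changes of the 9 were −0.38 to 0.77, the upper end being UQCRC2, a core protein named after its value was seen. UQCRC1, the other core protein, had 235, 235, 239.5 and 238 CPM in P0, 181, 180.0, 185 and 188 CPM in P3, 219, 214, 223 and 226.5 CPM in P7 and 303, 306, 297 and 301 CPM in P15, so that no phases overlapped. In complex IV, COX6A1 was 0.77 above P0 at P15 and COX7B 0.69 below it (SE 0.055 and 0.043), COX8A was lower by 0.39 (0.35 without P0 replicate 2) and COX6B1 by 0.17, and COX7A2, COX7A2L and COX4I1 were higher by 0.34, 0.31 and 0.16. NDUFA4, a complex IV subunit despite its name, had −0.09 and did not pass. COX7A2L helps complexes III and IV to join.

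Isoforms used by other tissues stayed low. COX4I2, COX7A1, COX7B2 and COX8C had at most 0.157 CPM in any library, and COX7B2 was listed at 0 in all 16. COX6B2, the testis form of COX6B1, had 0.028, 0, 0.028 and 0 CPM in P0, 0.133, 0.125, 0.050 and 0.057 in P3, 0.133, 0.042, 0.198 and 0.329 in P7 and 1.66, 1.89, 1.79 and 1.45 in P15. All 4 P15 libraries lay above all others, but the mean over the 16 was below 1 CPM, so it was not tested, and 29.9% of its exon bases are shared. NDUFA4L2, known as a hypoxia-responsive relative of NDUFA4, ranged from 0.057 to 1.25 CPM.

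The changes of nuclear members were modest for this series. The range of the 4 phase means had a median of 0.42 on the log2 scale over the 79 nuclear members and 0.73 over all tested genes, and it reached 1 in 7 of them (8.86%) against 34.6% of all genes. P15 was the phase of the highest mean for 42 nuclear members (53.2%; all genes 43.5%), and P3 that of the lowest for 39 (49.4%; all genes 24.5%). For the mitochondrial members, P7 was the highest for 11 of 13 (84.6%; all genes 16.2%). P0 was the highest for 0 of them, and leaving out P0 replicate 2 only lowers their P0 means. These shares are descriptions without a test.

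Among the 76 nuclear subunits, the fold change from P7 to P15 went with coding length, a property the choice of members did not use. Spearman's rho across genes was 0.46 at P15 against P7, whereas it was 0.043 over 11549 tested genes with a coding length and −0.17 and −0.12 over the subunits in the 2 earlier steps. The 35 subunits below 400 coding bases had a median of −0.08 at P15 against P7 with 19 of them below 0, and the 41 longer ones a median of 0.31 with 8 below 0. Over all genes the same division gave −0.08 for 526 short and 0.058 for 11023 longer ones. The points share libraries and depth, genes are not independent replicates, and no p is given.

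**Figure D5:**
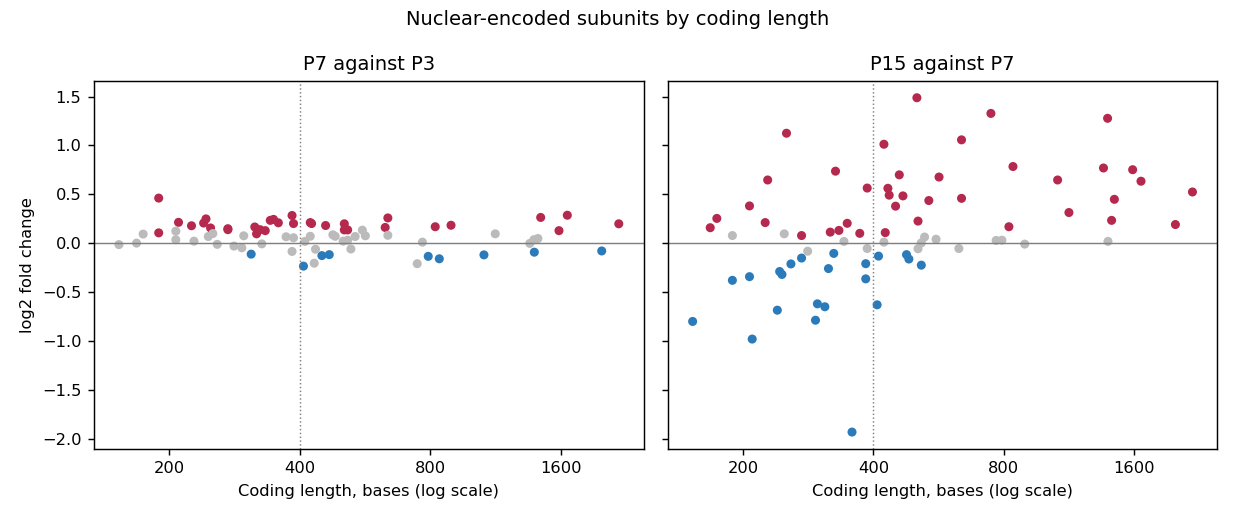
Log2 fold change of the 76 tested nuclear-encoded subunits against coding length in bases (log scale), for P7 against P3 and P15 against P7; the dotted line marks 400 bases. Red and blue points passed the test as higher and lower and grey ones did not; at P15 against P7 the blue points gather at the short end, and 8 of the 41 subunits with 400 or more coding bases lie below 0.

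Promoter sequences were taken from RefSeq on GRCh38.p14, 250 bases before each gene's start, and 62 of the 76 nuclear subunits matched an entry. A core of the NRF1 site, GCATGCGC, stood in 12 of the 62 (19.4%) and in 2.81% of 27305 promoters; a core of the ETS site, CCGGAAG, in 16 (25.8%) and 8.82%; and a core of the YY1 site, AAGATGGC, in 1 (1.61%) and 1.37%. Both strands were searched. NRF1 and the ETS factor GABP are textbook regulators of respiratory genes. Among the matched subunits higher at P15 than in P0, the NRF1 core stood in 6 of 27 and the ETS core in 6 of 27. Among the lower ones the NRF1 core stood in 2 of 21 and the ETS core in 8 of 21. The YY1 core stood in 0 of either. These are matches of letters, and no test of binding was made. Whether a core goes with the direction of change was not tested.

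The promoters of the c-subunit pair that moved apart, and of SDHB and NDUFA1, which have no exon overlap and also moved in opposite directions, are printed 5′ to 3′ in lower case with the matched cores in capitals. ATP5MC1 lies at chr17:48892537-48892786 on the plus strand and holds no match. ATP5MC2 lies at chr12:53676084-53676333 on the minus strand, SDHB at chr1:17054033-17054282 on the minus strand and NDUFA1 at chrX:119871582-119871831 on the plus strand, where the ETS core is on the opposite strand.
ATP5MC1: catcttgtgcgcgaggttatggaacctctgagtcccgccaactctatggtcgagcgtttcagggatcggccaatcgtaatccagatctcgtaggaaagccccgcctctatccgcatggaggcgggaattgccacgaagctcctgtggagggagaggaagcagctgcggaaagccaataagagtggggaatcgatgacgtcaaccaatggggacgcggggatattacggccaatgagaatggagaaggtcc
ATP5MC2: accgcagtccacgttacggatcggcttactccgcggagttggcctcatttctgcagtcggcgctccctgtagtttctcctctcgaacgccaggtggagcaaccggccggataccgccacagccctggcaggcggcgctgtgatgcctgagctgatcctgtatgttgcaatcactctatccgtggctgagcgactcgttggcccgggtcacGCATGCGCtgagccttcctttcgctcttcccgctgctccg
SDHB: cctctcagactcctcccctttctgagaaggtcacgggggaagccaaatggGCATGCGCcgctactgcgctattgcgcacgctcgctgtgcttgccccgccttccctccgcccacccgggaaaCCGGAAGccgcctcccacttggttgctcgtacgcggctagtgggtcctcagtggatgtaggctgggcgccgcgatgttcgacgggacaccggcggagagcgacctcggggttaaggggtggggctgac
NDUFA1: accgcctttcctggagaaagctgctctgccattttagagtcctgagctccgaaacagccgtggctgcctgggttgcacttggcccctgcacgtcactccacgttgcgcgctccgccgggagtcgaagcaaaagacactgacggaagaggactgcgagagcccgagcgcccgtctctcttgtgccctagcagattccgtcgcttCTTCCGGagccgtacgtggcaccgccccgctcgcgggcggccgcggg

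Other genes of the pathway were counted from lists of textbook members. Over all genes 31.4% rose and 37.3% fell from P0 to P3, 30.3% and 28.0% from P3 to P7, and 46.3% and 40.1% from P7 to P15. Of 49 tested assembly factors, which help build the complexes, 21 fell and 4 rose from P0 to P3, so that rises were rarer than over all genes. From P7 to P15, 21 rose and 20 fell, close to the all-gene shares of that step. The list of electron carriers and ubiquinone synthesis had 14 of 19 higher and 2 lower from P7 to P15, with a median of 0.49, among them COQ8A (1.53) and COQ3 (1.42), which act in ubiquinone synthesis, ETFB (1.20), part of the electron-transferring flavoprotein, and CYC1, cytochrome c1 of complex III, which the name rule leaves out (0.52). CYCS, cytochrome c, had 0.06 and did not pass.

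At P15 against P0, the list for mitochondrial DNA copying and transcription had 12 of 32 higher and 14 lower. Of all genes, 45.3% were higher and 40.9% lower in that comparison. From P7 to P15, the step in which all 13 mitochondrial mRNAs fell, 21 of the 32 were higher and 7 lower. POLRMT, the mitochondrial RNA polymerase, rose by 0.88, TFB1M, an rRNA methyltransferase, by 0.90, and POLG2, a subunit of the mitochondrial DNA polymerase, by 1.16, while MTERF1, a termination factor, fell by 0.53 and TEFM, an elongation factor, by 0.24. All 8 tested regulators of mitochondrial biogenesis rose in that step, by 0.09 (TFAM, which is also in the transcription list) to 0.93 (PPARGC1B), and 6 of the 8 had fallen from P0 to P3, so that 3 were higher and 2 lower at P15 against P0. Of 78 mitochondrial ribosomal proteins 43 fell and 4 rose from P3 to P7, and 38 rose and 23 fell from P7 to P15. Among 19 citric acid cycle genes 10 rose and 6 fell, and among 9 exchange carriers and pores, the VDAC porins of the outer membrane included, 4 rose and 4 fell, in the last step.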

How the data were processed

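RNA-sequencing values of 16 libraries (4 each at P0, P3, P7 and P15) were used. Alignment of the read pairs used STAR 2.6.1a and GRCh38, and gene counts came from featureCounts 1.6.2, as the study's methods state; the annotation release and strand setting are not given in the sources used here. The authors deposited log2(CPM + 1), to 2 decimals. The methods also name quantile normalization and median centring, which these values do not carry. Phases were compared with limma 3.58.1 (R 4.3.3) with a variance trend, and the procedure was tested on simulated data; sums were computed on linear CPM in Python 3.11.15. Exon overlap, length and position come from GENCODE 44, to which 99 members matched. Named were all mitochondrial members, SDHA to SDHD, isoform pairs, the c-subunit genes and, per comparison, the 5 nuclear members that rose and fell most. One member that this rule names is not reported here; counts and sums include it. The members and lists were chosen with earlier results of these data known. Alternatives covered filters, pseudocounts of 0.1 and 5, scalings, a replicate block, the variance trend, 2 phases alone and each library left out. Replicate numbers come from the descriptions; deviations of same-numbered libraries correlated at −0.147 to 0.218 over 24 pairs, 1 of them above 0.1, so no pairing was used.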

Additional observations from a re-analysis of the deposited data

Results flagged for a closer look

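Of 211 groups of 4 libraries examined (members and their sums by phase), 14 held a library whose gap to its nearest neighbour exceeded Dixon's 95% critical share of the group's range, where chance alone gives about 11. Of these, 3 fell on P0 replicate 2: SDHD (gap 0.94 of the range), SDHC (0.88) and COX8A (0.87) were higher there than in the other P0 libraries. The mitochondrial members of that library, although all highest in P0, did not pass this criterion. Single low libraries were P7 replicate 2 for ATP5D (0.89), P7 replicate 1 for ATP5G1 (0.89), P7 replicate 4 for NDUFA2 (0.90) and MT-ND1 (0.88), and P3 replicate 2 for NDUFV2 (0.85). Single high ones were P3 replicate 2 for ATP5E, P3 replicate 3 for ATP5O and COX7B, and P0 replicate 1 and P3 replicate 4 for COX4I2, each with 3 other libraries at one value and so a gap of 1.0 of the range, and P7 replicate 3 for COX7A1 (0.89). Both COX4I2 flags are a log2 value of 0.04 against 0.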

How the results depend on the processing

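Leaving out single libraries moved the counts of members over 92 to 9 to 18 higher and 37 to 46 lower at P3 against P0, 32 to 41 and 8 to 10 at P7 against P3, 39 to 44 and 31 to 36 at P15 against P7, and 38 to 46 and 26 to 32 at P15 against P0; the 18 came without P0 replicate 2, where the full set gave 11. The mitochondrial share ranged over 0.92 to 1.18% in P0, 1.26 to 1.32% in P3, 1.5 to 1.58% in P7 and 0.90 to 0.942% in P15. Without its most abundant member it was 0.914% in P3, 1.07% in P7 and 0.643% in P15. Quantile normalization gave 6 members lower at P7 against P3 in place of 10; the cause was not tested. MT-ATP8 at P3 against P0 (−0.01) turned to 0.18 without P0 replicate 2, within a range of −0.12 to 0.18 over the libraries left out. With the replicate block, tried with both numberings, the counts at P3 against P0 were 12 and 11 higher and 42 and 44 lower, and no named call was lost. Of the comparisons of named members under all alternatives, 4927 kept their side of the threshold, 92 lost it, 52 gained it and 1 turned. A turn was counted only where the main or the alternative fit passed, so the 4927 include changes of sign that passed in neither. MT-CO3 at P3 against P0 is such a case, with −0.13 in the main fit and 0.04 without P0 replicate 2. Rounding to 2 decimals limits members near 0.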
